A study of Mus musculus with 18 samples.

Results

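The 37 genes described here encode keratins, junction proteins and regulators of simple epithelia, the single-layered sheets that line the uterine lumen and form its glands. They were taken by name from 22911 gene symbols on a mouse whole-genome array. By role they are 3 adhesion molecules (Cdh1, Epcam and Cdh16), 7 tight junction genes (Lsr, Ocln, Tjp3, Cgn, Marveld2, Marveld3 and F11r), and 7 claudins (Cldn1, Cldn3, Cldn4, Cldn7, Cldn8, Cldn10 and Cldn23). The others are 6 keratins (Krt7, Krt8, Krt18, Krt19, Krt23 and Krt80), 3 desmosomal plaque genes (Dsp, Pkp3 and Jup), 6 regulators (Esrp1, Esrp2, Grhl2, Ovol2, Elf3 and Ehf), and 5 genes of membrane proteases, their inhibitors and vesicle traffic (St14, Prss8, Spint1, Spint2 and Rab25). All 37 passed the filter on dim probes, and 34 were read well above background on all 18 arrays. Among them were 8 widely used genes of simple epithelium (Cdh1, Epcam, Krt8, Krt18, Krt19, Cldn3, Cldn4 and Cldn7).

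The study set ERBOE mice, whose labels give them as oestrogen receptor beta overexpressors, against PRCre/+ controls, which carry Cre recombinase in the progesterone receptor gene; the full ERBOE genotype is not spelled out in the labels. Ectopic lesions grew from one ERBOE or PRCre uterine fragment implanted in an intact wild-type C57BL/6J mouse of 8 weeks, so the donor tissue had the genotype and the host did not. Eutopic endometrium came from ERBOE or PRCre mice implanted at 8 weeks with a wild-type fragment, and uterus from ERBOE or PRCre mice of 12 weeks without surgery. Lesions and eutopic samples were taken at estrus 4 weeks after implantation, uteri also at estrus, and each of the 3 arrays per group carried RNA pooled from 3 animals, 9 animals per group. The labels hold a contradiction: the source names given to ERBOE lesions and ERBOE eutopic samples have these mice as free of endometriosis, and the account of the eutopic samples speaks of harvesting lesions. Groups follow the titles. A p-value here measures only the spread between pools.

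Epithelial cells are held together at their apical sides by tight junctions, in which claudins and other membrane proteins seal the gap between cells, and below these by adherens junctions built on E-cadherin and by desmosomes tied to keratin filaments. In simple epithelia these filaments are mainly Krt8 and Krt18, with Krt7 and Krt19 in ducts and linings such as the endometrium. Factors such as Grhl2 and Ovol2 keep these genes on, the splicing factors Esrp1 and Esrp2 maintain epithelial isoforms, and the membrane proteases St14 (matriptase) and Prss8 (prostasin), held in check by Spint1 and Spint2, take part in barrier formation.

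Esr2, the gene of oestrogen receptor beta, was first compared between genotypes. It averaged 2.20 ± 0.16 in ERBOE lesions and 2.46 ± 0.07 in PRCre lesions, 2.45 ± 0.30 in ERBOE and 2.44 ± 0.25 in PRCre eutopic endometrium, and 2.46 ± 0.08 in ERBOE and 2.70 ± 0.15 in PRCre uterus (SD, n = 3). These levels, as all levels below, are log2 signal relative to the 75th percentile of their array. Genotype differences (ERBOE minus PRCre) were -0.25, 0.01 and -0.24, each with a standard error of 0.20, and none passed limma's test (adjusted p of 0.99, 1 and 0.71). No source used here places the probe on the transgene, so Esr2 does not check the labels. Esr1, which encodes oestrogen receptor alpha, showed differences of -0.17 ± 0.33, 0.09 ± 0.33 and 0.06 ± 0.33 in the same order of tissues, and Pgr, the progesterone receptor gene, differences of -0.21 ± 0.59, 0.42 ± 0.59 and -0.27 ± 0.59. The 75th percentile signal lay between 451.4 and 740.0 on 17 arrays and at 237.3 on PRCre uterus replicate 1, and 53.1% to 73.0% of probes were well above background.

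In the uterus, epithelial genes read higher in ERBOE than in PRCre mice across most roles, without any gene passing the test over all features. Of the 37 genes, 30 had a higher mean in ERBOE uterus, against 40.3% of all 33178 features tested, and the median difference was 0.89 on the log2 scale, against -0.12 for all features. In limma's test 0 of the 37 had an adjusted p under 0.05, as had 0 of all features (0.0%). At an unadjusted p under 0.05, 18 genes were higher, against a background of 4.14% of features, and 1 was lower, against 5.79%. In 16 genes every ERBOE array was above every PRCre array (background 6.24%), and in 2 every ERBOE array was below (background 8.77%). Differences and levels come from bulk RNA, in which fewer cells of a type and less RNA per cell cannot be told apart.

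Cdh1, which encodes E-cadherin, the adhesion molecule of adherens junctions, read 2.77, 2.60 and 1.82 in ERBOE uterus, against 0.25, 0.64 and 0.35 in PRCre uterus. The groups were clearly apart, by 1.98 ± 0.56 (SE) or 3.95-fold, with an unadjusted p of 0.00313 and an adjusted p of 0.354 by limma. Epcam, a surface adhesion molecule of epithelia, read 2.31, 2.04 and 1.41 in ERBOE uterus, against 0.52, 0.09 and 0.34 in PRCre uterus, a difference of 1.60 ± 0.55. The cadherin Cdh16, best known from kidney tubules, was at -1.03, -0.57 and -3.61 in ERBOE uterus and -1.45, -1.23 and -1.95 in PRCre uterus. On this probe the ERBOE arrays enclosed the PRCre ones, and the difference was -0.20 ± 0.65. A second Cdh16 probe, well above background on 16 of 18 arrays, gave 2.53, so its direction in uterus depended on the probe.

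All 7 tight junction genes had a higher mean in ERBOE uterus, with a median difference of 1.02. Cgn, which encodes the cytoplasmic plaque protein cingulin, had the smallest unadjusted p among the 37 genes (0.00194, adjusted p of 0.336 by limma). Its arrays read 1.84, 1.42 and 0.97 in ERBOE uterus, against 0.07, -0.10 and -0.43 in PRCre uterus, a difference of 1.56 ± 0.41 or 2.95-fold. Tjp3, a scaffold that links claudins to actin, read 5.11, 4.25 and 3.83 in ERBOE uterus, against 3.31, 2.00 and 1.49 in PRCre uterus. Lsr, the angulin of tricellular junctions, and Marveld2, which encodes tricellulin, its partner at the same corners, were apart as well. Lsr read 4.44, 4.48 and 3.95 in ERBOE uterus, against 3.32, 3.06 and 3.12 in PRCre uterus, and Marveld2 differed by 1.00 ± 0.33. F11r, the junctional adhesion molecule A gene, differed by 1.02 ± 0.33 without overlap of the arrays. Ocln (occludin) and Marveld3 overlapped between the genotypes, with differences of 0.62 ± 0.56 and 0.66 ± 0.50. Further Marveld3 probes, dimmer than the one used, gave 1.38 and 1.20.

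The claudins were split: 3 of 7 read higher in ERBOE uterus and the median difference was -0.47. Cldn7, a claudin of the lateral membrane, read 5.19, 5.23 and 5.22 in ERBOE uterus, against 3.66, 3.91 and 3.49 in PRCre uterus, a difference of 1.52 ± 0.63. Cldn1, a sealing claudin, went the other way and read -1.26, -2.81 and -2.05 in ERBOE uterus, against -0.84, -1.19 and -0.09 in PRCre uterus. Its arrays did not overlap, and the difference was -1.33 ± 0.61 (unadjusted p of 0.0469, adjusted p of 0.496 by limma). Cldn10, a claudin that forms ion pores, was the second gene with every ERBOE array below, at 2.87, 2.42 and 1.77 in ERBOE uterus, against 3.06, 3.10 and 3.38 in PRCre uterus. Cldn3 and Cldn23 differed by 0.68 ± 0.53 and 0.87 ± 0.65, and Cldn4 and Cldn8 by -0.47 ± 0.57 and -0.51 ± 1.24, all with overlap.

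Of the 6 keratins 4 read higher in ERBOE uterus, with a median of 1.11, and so did all 3 desmosomal plaque genes, with a median of 1.15. Krt19 read 6.84, 6.48 and 5.62 in ERBOE uterus, against 4.55, 4.13 and 3.07 in PRCre uterus, a difference of 2.40 ± 0.85 or 5.27-fold (unadjusted p of 0.0129). Krt8, the type II partner of Krt18, read 7.08, 6.80 and 6.20 in ERBOE uterus, against 5.22, 4.87 and 4.63 in PRCre uterus. Both keratins were higher on every ERBOE array than on any PRCre array. Krt7 differed by 1.60 ± 0.62, and its lowest ERBOE array (3.44) lay below its highest PRCre array (3.55). Krt18 differed by 0.62 ± 0.41 and Krt80 by -0.31 ± 0.47. Krt23 read -0.12, 0.60 and 0.11 in ERBOE uterus and 0.29, 0.65 and 4.17 in PRCre uterus, the last array standing far above the others. Dsp, which encodes desmoplakin, the link from desmosome to keratin, read 2.50, 2.20 and 1.40 in ERBOE uterus, against 0.13, -0.44 and -0.76 in PRCre uterus. It differed by 2.39 ± 0.68 or 5.24-fold, with an unadjusted p of 0.00328 and an adjusted p of 0.354. Pkp3 (plakophilin 3) and Jup (plakoglobin) differed by 1.15 ± 0.47 and 0.89 ± 0.35 without overlap, Pkp3 on 2 ERBOE arrays, since its spot on replicate 2 was called an outlier.

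Regulators of the epithelial programme lay higher too, all 6 by mean, with a median difference of 0.86. Grhl2, the grainyhead-like factor, read 1.67, 1.69 and 1.22 in ERBOE uterus, against 0.36, 0.37 and 0.56 in PRCre uterus, a difference of 1.10 ± 0.42. Esrp1, the epithelial splicing regulator, differed by 1.24 ± 0.50, the lowest ERBOE array (0.38) lying just above the highest PRCre array (0.37). Its paralog Esrp2 differed by 0.30 ± 0.58, and Ovol2, a zinc finger factor, by 0.36 ± 0.35. The ETS factor Elf3 varied most of the 6, at 2.75, 2.32 and 1.44 in ERBOE uterus and 1.53, 0.17 and -1.74 in PRCre uterus, and its difference of 2.18 ± 1.22 had an unadjusted p of 0.0934. The related factor Ehf differed by 0.61 ± 0.44. The 5 genes of proteases, inhibitors and traffic were higher by mean too, with a median of 0.59. St14 read 2.82, 2.29 and 1.98 in ERBOE uterus, against 1.62, 1.02 and 0.67 in PRCre uterus, and Rab25, a small GTPase of epithelial recycling endosomes, differed by 1.26 ± 0.58. Prss8, Spint1 and Spint2 overlapped, with differences of 0.52 ± 0.50, 0.59 ± 0.62 and 0.25 ± 0.34. A second Spint2 probe of like brightness gave 1.07.

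**Figure D1:**
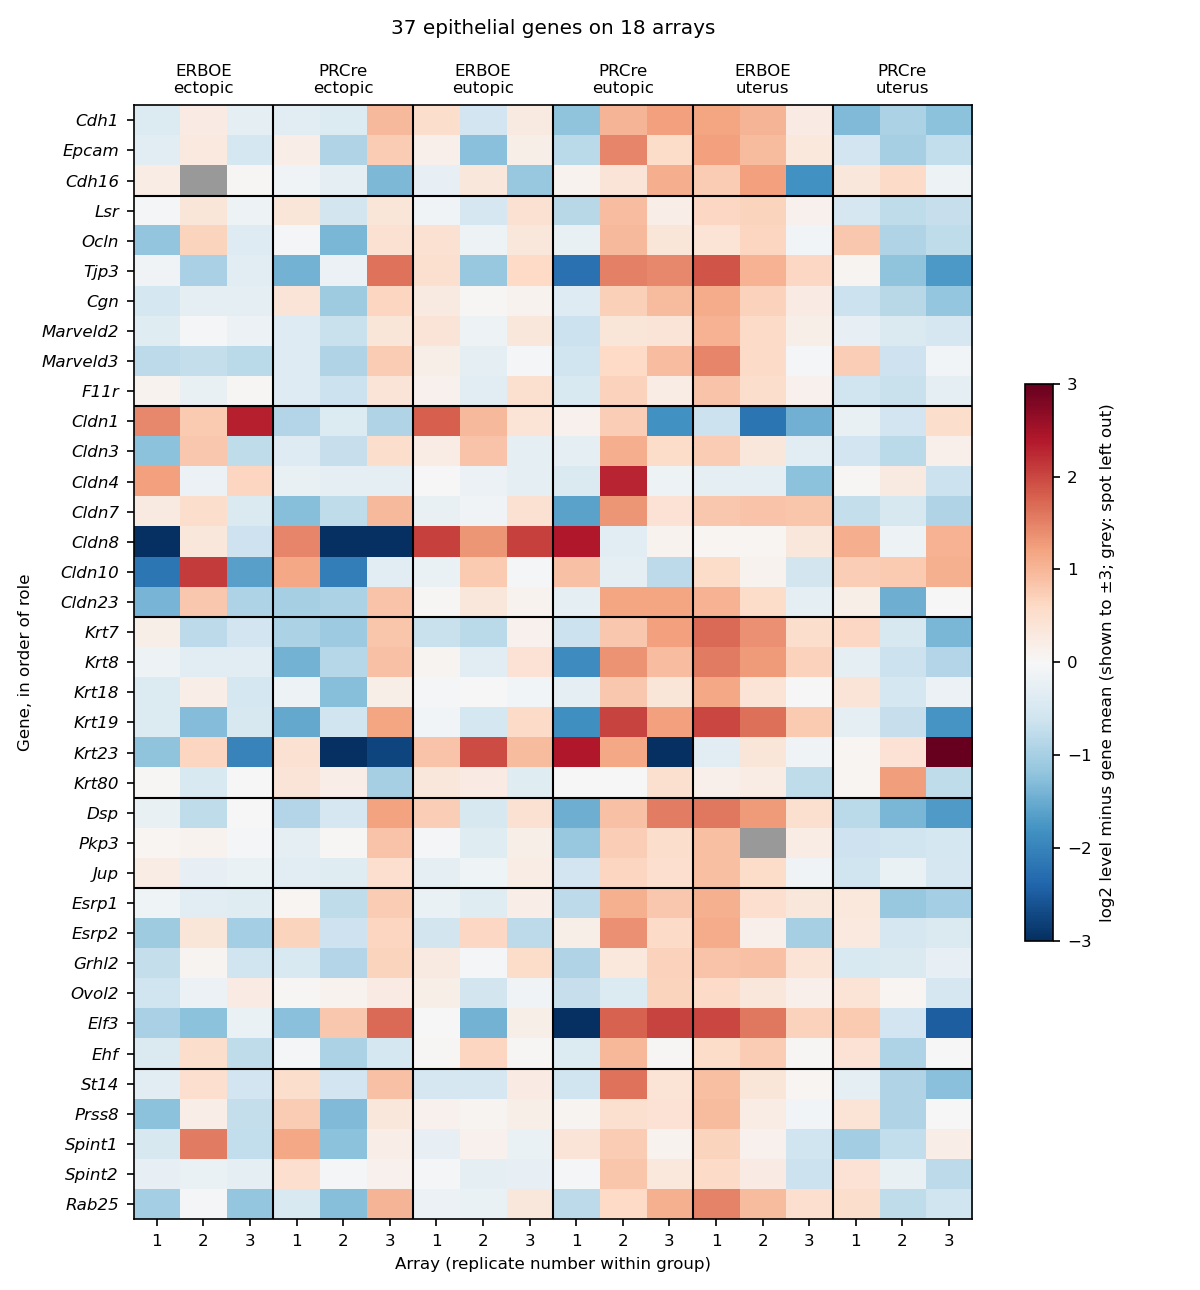
Log2 level of each of the 37 genes (rows, by role) on each of the 18 arrays (columns, by group), as the deviation from the gene's own mean over arrays. The PRCre uterus columns are mostly below and the ERBOE uterus columns mostly above the gene means, while PRCre eutopic replicate 1 stands below the other PRCre eutopic arrays for most genes, with Cldn8, Cldn10 and Krt23 above them.

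The uterus was the one tissue with both genotypes on all 3 array slides, and within slides 1, 2 and 3 the median difference of the 37 genes was 0.65, 1.23 and 1.06. Without PRCre uterus replicate 1, the dim array, the median was 1.07 and 30 genes were higher. The count at an unadjusted p under 0.05, 19 in both directions, was 9 without PRCre uterus replicate 3, 9 without ERBOE uterus replicate 1 and 11 without ERBOE uterus replicate 2. Here and below, counts with an array left out have no share of all features beside them. They show only how far a count depended on single arrays. Markers of other cells differed in the same comparison. For each array, the median over a list of the deviations from the genes' means over the 18 arrays was taken (array median). For 7 luminal epithelium markers it was 0.56 to 1.09 on ERBOE uterus arrays, against -1.56 to -0.32 on PRCre uterus arrays, with 5 of 7 higher and a median difference of 1.57. Of 7 gland markers 2 were higher, with a median difference of -1.39, and array medians of -1.63 to -0.01 in ERBOE uterus, against -1.19 to 2.28 in PRCre uterus. Of 9 endothelial markers 0 were higher, with a median difference of -0.61, and array medians of -0.63 to -0.56 in ERBOE uterus, against -0.58 to 0.79 in PRCre uterus. Stromal markers, 5 of 11 higher, and smooth muscle markers, 5 of 10 higher, had medians of -0.06 and -0.01, and leukocyte markers, 1 of 12 higher, had a median of -0.48. Their part in the result was not tested.

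**Figure D2:**
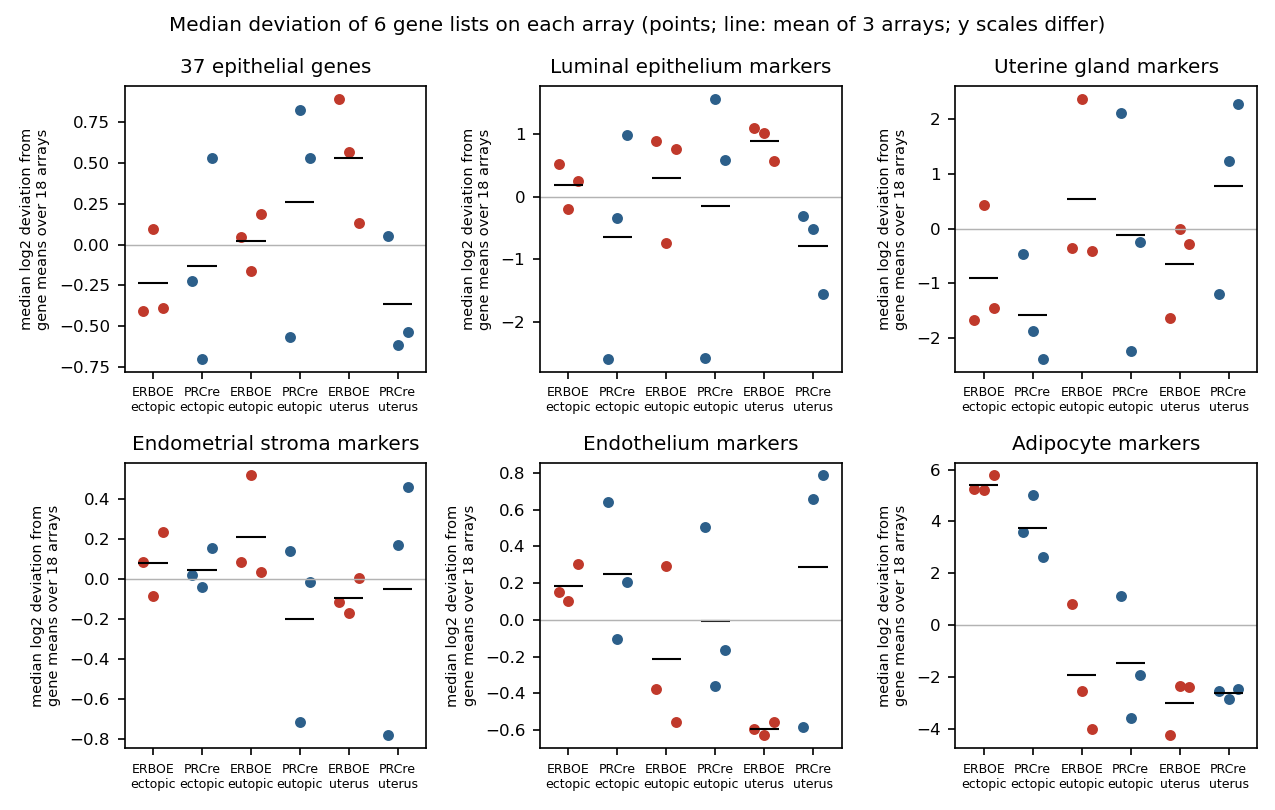
Array median (log2 deviation from gene means over 18 arrays; points, with the line at the mean of 3 arrays) of the 37 genes and of markers of luminal epithelium, glands, stroma, endothelium and adipocytes, by group. The 37 genes and the luminal markers lie higher in ERBOE uterus than in PRCre uterus, and the adipocyte markers lie highest in ectopic lesions of both genotypes.

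Other genes of the same structures, from lists that do not hold the 37, were set beside them in the uterus. Of 16 further adherens junction and desmosome genes, 14 were higher in ERBOE uterus with a median of 0.94, among them Ctnnd1 (p120 catenin) at 1.13 ± 0.27 and Evpl (envoplakin) at 2.47 ± 0.63. Of 12 further epithelial transcription factors 11 were higher (median 0.72), and of 18 further membrane, protease and traffic genes 17 were (median 0.83), with Lad1 at 2.19 ± 0.59, Rab11fip1, a Rab25 effector, at 1.85 ± 0.60 and Tmc4 at 1.54 ± 0.51. Tight junction scaffolds and polarity genes were more mixed, 11 of 16 higher with a median of 0.32, Llgl2 at 1.62 ± 0.46 and Pard6b at 1.25 ± 0.39 against Jam2, an endothelial junction gene, at -1.54 ± 0.55. Further claudins (6 of 11 higher, median 0.23) and keratins outside the simple epithelial set (5 of 12, median -0.06) had no common direction, as for the 7 claudins above. Of 10 genes of mesenchymal cells and epithelial-mesenchymal transition, 1 was higher, with a median of -0.42 and Vim (vimentin) at -1.15 ± 0.34. In limma's fit 0 of these genes had an adjusted p under 0.05, and Ctnnd1 had the smallest of those named (unadjusted p of 0.000731, adjusted p of 0.27).

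Promoter windows of genes that read together in the uterus are shown to set their sequence beside the values, with that of Cldn1, which read lower in ERBOE uterus. They are from RefSeq on GRCm38.p6, 250 bases before to 50 after the start, and 23 of the 37 genes had one; Cdh1 and Krt19, for example, had none. The genes shown were chosen after their values were seen. Capitals mark CAGGTG or its reverse complement CACCTG, the E-box letters that zinc finger and basic helix-loop-helix factors recognise. The windows are Epcam (chr17:87635729-87636028, plus strand), Lsr (chr7:30973420-30973719, minus strand), Rab25 (chr3:88548230-88548529, minus strand), Krt8 (chr15:102004293-102004592, minus strand), Dsp (chr13:38151044-38151343, plus strand) and Cldn1 (chr16:26371790-26372089, minus strand).
Epcam: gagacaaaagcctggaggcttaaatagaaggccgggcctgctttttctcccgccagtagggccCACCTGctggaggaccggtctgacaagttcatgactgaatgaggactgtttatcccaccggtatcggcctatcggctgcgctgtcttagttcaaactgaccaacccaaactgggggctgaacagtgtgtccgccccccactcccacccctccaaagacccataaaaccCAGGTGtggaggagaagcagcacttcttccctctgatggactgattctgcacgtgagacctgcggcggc
Lsr: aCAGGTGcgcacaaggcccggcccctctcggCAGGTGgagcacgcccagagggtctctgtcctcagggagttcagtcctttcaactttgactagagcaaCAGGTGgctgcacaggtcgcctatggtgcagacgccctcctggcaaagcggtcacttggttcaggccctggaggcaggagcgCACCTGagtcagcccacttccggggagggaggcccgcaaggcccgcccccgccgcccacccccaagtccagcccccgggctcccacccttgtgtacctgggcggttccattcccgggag
Rab25: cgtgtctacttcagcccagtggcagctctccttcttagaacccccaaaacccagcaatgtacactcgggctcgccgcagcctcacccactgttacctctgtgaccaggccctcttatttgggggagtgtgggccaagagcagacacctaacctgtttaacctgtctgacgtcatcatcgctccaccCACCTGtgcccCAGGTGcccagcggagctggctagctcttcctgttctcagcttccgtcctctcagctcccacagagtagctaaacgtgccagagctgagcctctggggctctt
Krt8: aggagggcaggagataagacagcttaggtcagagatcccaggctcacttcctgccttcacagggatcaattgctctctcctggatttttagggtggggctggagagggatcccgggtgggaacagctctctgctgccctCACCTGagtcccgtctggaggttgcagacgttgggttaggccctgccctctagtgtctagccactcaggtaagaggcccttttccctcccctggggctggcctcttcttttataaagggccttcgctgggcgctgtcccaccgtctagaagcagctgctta
Dsp: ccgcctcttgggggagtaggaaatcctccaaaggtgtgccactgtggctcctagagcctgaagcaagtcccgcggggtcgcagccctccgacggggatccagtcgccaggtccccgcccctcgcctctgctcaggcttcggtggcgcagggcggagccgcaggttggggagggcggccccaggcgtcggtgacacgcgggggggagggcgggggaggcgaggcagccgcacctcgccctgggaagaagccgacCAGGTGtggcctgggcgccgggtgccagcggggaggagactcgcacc
Cldn1: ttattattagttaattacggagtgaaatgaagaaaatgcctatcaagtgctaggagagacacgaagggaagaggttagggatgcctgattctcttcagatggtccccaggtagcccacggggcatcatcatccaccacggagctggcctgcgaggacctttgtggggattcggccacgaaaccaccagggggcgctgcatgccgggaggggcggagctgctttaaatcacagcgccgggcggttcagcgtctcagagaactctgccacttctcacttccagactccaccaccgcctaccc

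The E-box letters were in 16 of the 23 windows (69.6%), against 20.0% of 27025 promoters of the same length, both strands searched. Epcam had them 187 and 19 bases before the start, Lsr at 249, 219, 151 and 69 bases, Rab25 at 64 and 53 bases and Krt8 at 111 bases, while Dsp had them at base 4 of the transcript. The letters were absent from the windows of Cldn1 and Cldn10, which read lower in ERBOE uterus, and also from those of Cgn, Cldn7, Jup, Ovol2 and Spint1, which read higher there. They were present in the windows of Krt23 and Cldn4, which read lower. The GC box GGGCGG was in 60.9% of the 23 windows, against 35.9% of all promoters, the oestrogen receptor core AGGTCA in 30.4% against 16.0%, the ETS core AGGAAG in 26.1% against 35.1% and AACNNGTT, which grainyhead-like factors recognise, in 8.7% against 4.19%. These are matches of letters, described as such.

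**Figure D3:**
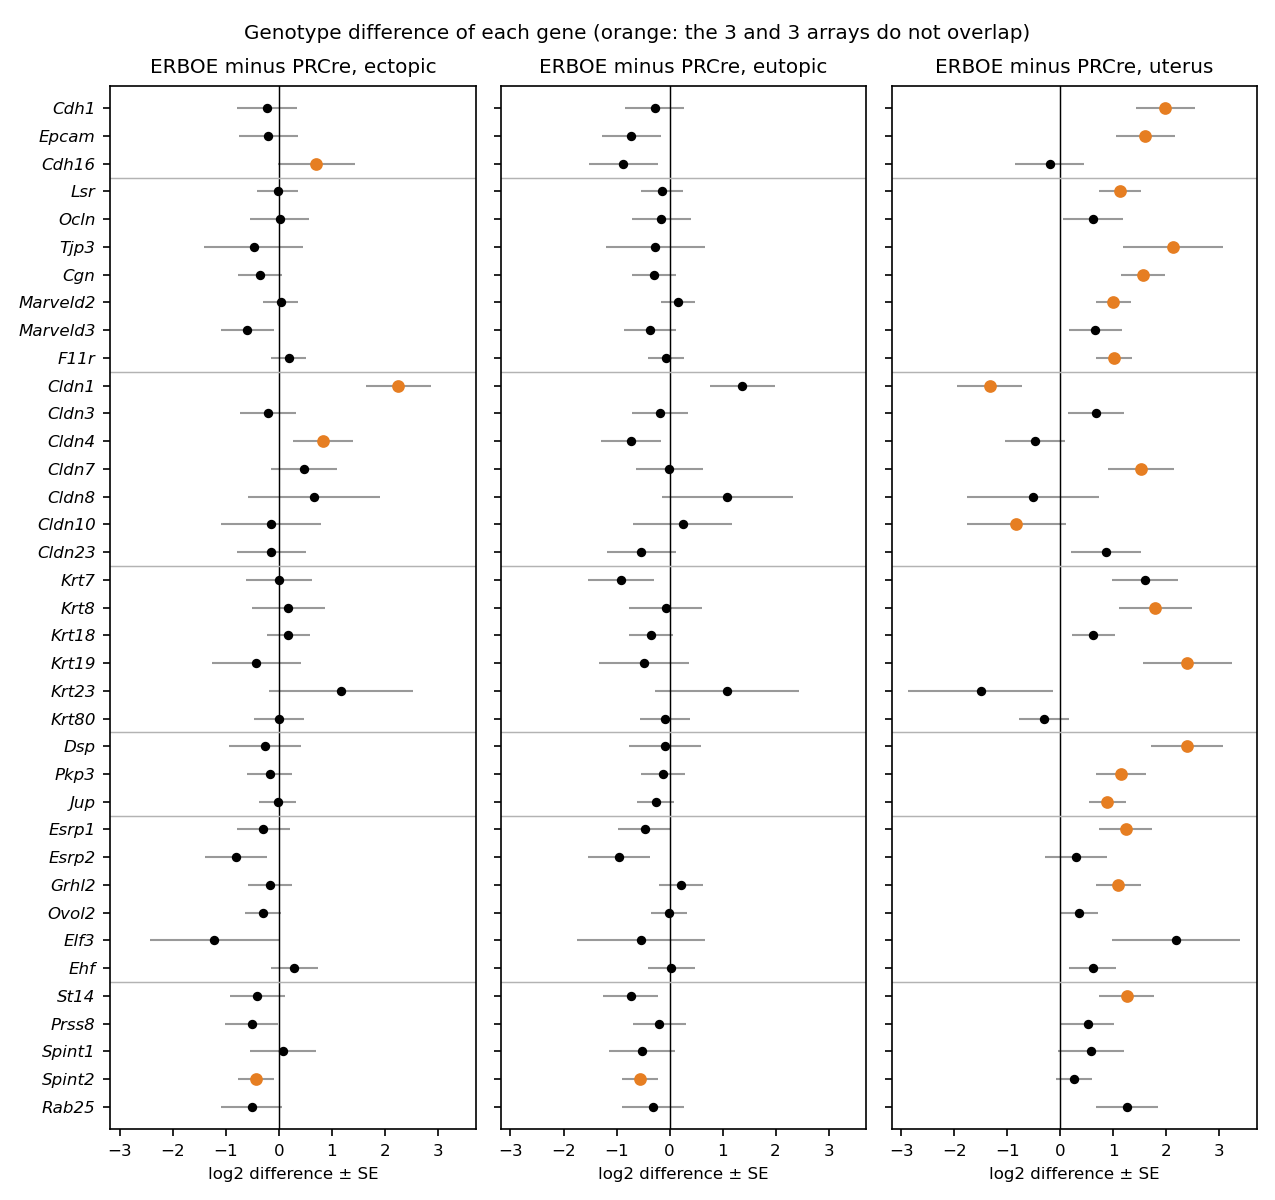
ERBOE minus PRCre difference in log2 level for each of the 37 genes in uterus, eutopic endometrium and ectopic lesions (points), with standard errors from limma (bars). Most genes lie right of 0 in uterus and near or left of 0 in the other tissues, and Cldn1 lies left of 0 in uterus (-1.33) and right of 0 in eutopic endometrium (1.37) and lesions (2.25).

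In eutopic endometrium and in lesions most of the genes did not read higher in ERBOE than in PRCre samples. In eutopic endometrium 7 of 37 were higher, against 49.2% of all features, with a median difference of -0.26, against -0.01 for all. In limma's test 0 had an adjusted p under 0.05 (0.0% of features), and 1, Cldn1, an unadjusted p under 0.05 (1.76% of features higher by the same rule). Arrays of the genotypes were apart for 1 gene, Spint2, an inhibitor of membrane serine proteases, lower in every ERBOE array (background 4.03%): it read 2.20, 1.99 and 2.02 in ERBOE and 2.22, 3.08 and 2.57 in PRCre eutopic endometrium. Within slides 2 and 3 the median was -0.48, with 7 genes higher, and -0.06, with 15 higher. The PRCre eutopic arrays were far apart among themselves. Krt19 read 4.75, 4.31 and 5.41 in ERBOE eutopic endometrium and 3.00, 6.85 and 6.07 in PRCre eutopic endometrium, and the array median of the 37 genes was 0.04, -0.16 and 0.19 on the ERBOE arrays, against -0.57, 0.83 and 0.53 on the PRCre arrays. The median was -0.71, with 4 genes higher, without PRCre eutopic replicate 1 and 0.13, with 20 higher, without PRCre eutopic replicate 2. Genes higher were 14 without PRCre eutopic replicate 3 and 15 without ERBOE eutopic replicate 2. Genes at an unadjusted p under 0.05 were 9 without PRCre eutopic replicate 1 and 0 when either ERBOE eutopic replicate 1 or PRCre eutopic replicate 3 was left out.

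In lesions 14 of 37 genes were higher in ERBOE, against 43.9% of all features, with a median of -0.15, against -0.06 for all. In limma's test 0 had an adjusted p under 0.05 (0.0% of features), and Cldn1 alone an unadjusted p under 0.05 (2.11% of features higher). Arrays did not overlap for Cldn1, Cldn4 and Cdh16, higher in ERBOE lesions (background 5.33%), and for Spint2, lower (background 6.11%). Cldn4 read -0.56, -1.96 and -1.14 in ERBOE lesions, against -2.01, -2.08 and -2.06 in PRCre lesions, a difference of 0.83 ± 0.57. Cdh16 was read on 2 ERBOE arrays, and its second probe gave -0.49, against 0.71 on the probe used. Within slides 1 and 2 the median difference of the 37 genes was -0.41, with 11 of 36 higher, and 0.06, with 22 of 37 higher. The spread among PRCre lesions was wide for Elf3, at -0.23, -0.48 and 0.54 in ERBOE lesions and -0.52, 1.56 and 2.44 in PRCre lesions. The median difference was -0.46, with 7 genes higher, without PRCre ectopic replicate 2 and 0.22, with 26 higher, without PRCre ectopic replicate 3. Genes at an unadjusted p under 0.05 were 3 without PRCre ectopic replicate 2, and 2 without PRCre ectopic replicate 1 or PRCre eutopic replicate 2.

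The genotype effect (ERBOE minus PRCre) was itself compared between tissues. It was larger in eutopic endometrium than in uterus for 5 of 37 genes, with a median of -1.11, against 0.12 for all features, of which 59.2% were above 0. At an unadjusted p under 0.05, 11 genes were lower (2.26% of features) and 1 higher (2.84%). Cgn differed by -1.85 ± 0.59 (unadjusted p of 0.00668) and Krt19 by -2.88. In lesions against uterus 7 of 37 effects were larger, with a median of -1.03, against 0.05 for all features, of which 53.6% were above 0. At an unadjusted p under 0.05, 9 were lower (3.07% of features) and 1 higher (3.68%), with Cgn at -1.91 ± 0.59 and Dsp at -2.65. Both comparisons use the same uterus arrays, so they are not independent. By limma 0 genes of the 37 had an adjusted p under 0.05 in either, as had 0.0% of all features in each. The 12 genes of the eutopic comparison became 22, 5 and 6 without PRCre eutopic replicates 1, 2 and 3, and 6 without ERBOE uterus replicate 1 or ERBOE eutopic replicate 2. The 10 of the lesion comparison became 17 without PRCre eutopic replicate 1, which enters through the shared estimate of spread, and 16 without ERBOE uterus replicate 3. They became 5 without ERBOE ectopic replicate 1 or 3 or PRCre uterus replicate 2, 4 without ERBOE uterus replicate 1 or 2, PRCre uterus replicate 3 or PRCre ectopic replicate 3, and 6 with the replicate number as a block. Between lesions and eutopic endometrium the effect was larger in lesions for 23 of 37 genes, with a median of 0.12, against -0.06 for all features, of which 43.1% were above 0, and 0 genes had an unadjusted p under 0.05 (0.811% of features higher and 0.817% lower). Those 23 became 14 without PRCre ectopic replicate 2 and 10 without PRCre eutopic replicate 2.

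Cldn1 read lower in ERBOE than in PRCre uterus and higher in ERBOE eutopic endometrium and lesions. By mean Krt23 did so too, at -1.50, 1.09 and 1.17 in uterus, eutopic endometrium and lesions, and Cldn8 at -0.51, 1.09 and 0.66. Arrays of Krt23 and Cldn8 overlapped between the genotypes in each tissue. Cldn1 read 0.83, 0.18 and 1.71 in ERBOE lesions, against -1.48, -1.03 and -1.52 in PRCre lesions, and 1.17, 0.36 and -0.21 in ERBOE eutopic endometrium, against -0.49, 0.13 and -2.43 in PRCre eutopic endometrium. Every ERBOE lesion was above every PRCre lesion, whereas in uterus, as given above, every ERBOE array was below. The ERBOE minus PRCre difference was 2.25 ± 0.61 in lesions (unadjusted p of 0.00233, adjusted p of 0.855 by limma) and 1.37 ± 0.61 in eutopic endometrium (0.0408, adjusted p of 1). The lesion effect exceeded the uterus effect by 3.58 ± 0.86 (unadjusted p of 0.000933, adjusted p of 0.464), and the eutopic effect exceeded it by 2.70 ± 0.86 (0.00721).

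**Figure D4:**
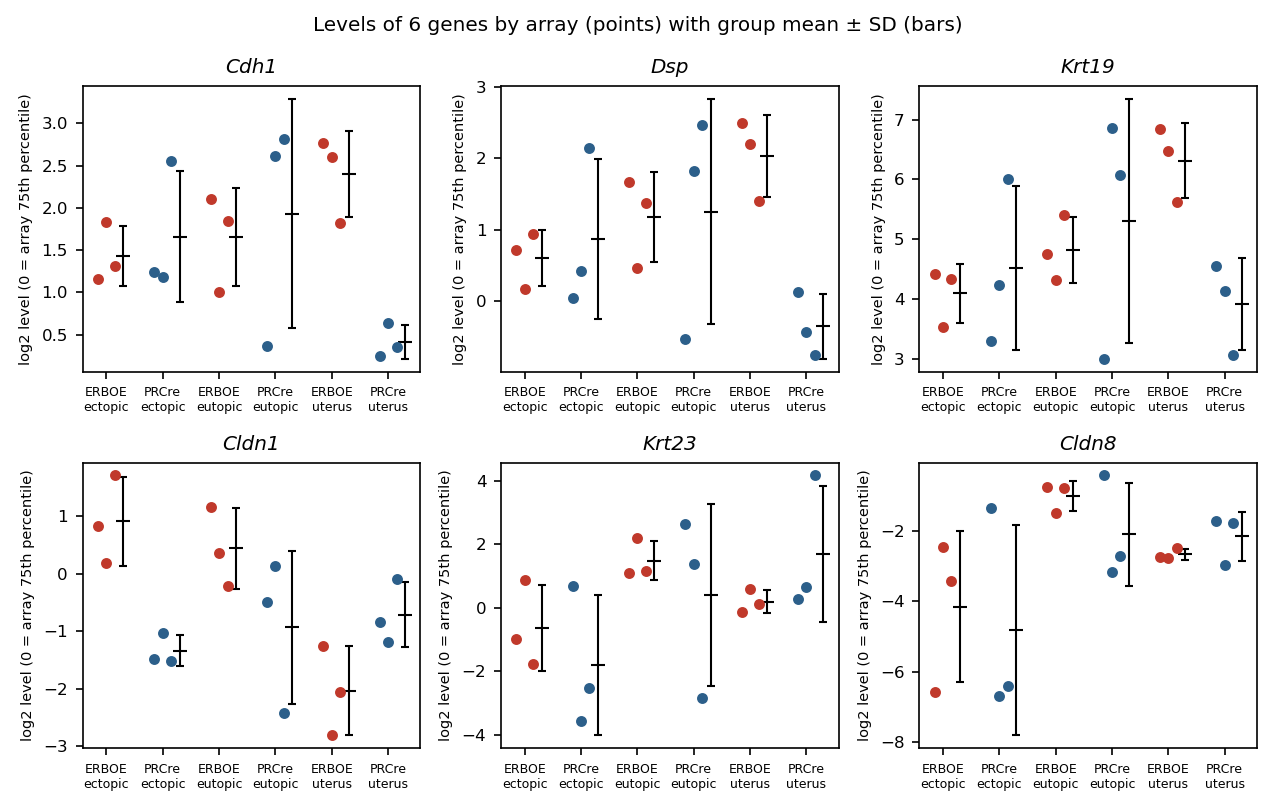
Log2 level relative to the array's 75th percentile of Cdh1, Dsp, Krt19, Cldn1, Krt23 and Cldn8 on each array (points) with the group mean (line), by group. By mean, Cdh1, Dsp and Krt19 are lowest in PRCre uterus and highest in ERBOE uterus, and Cldn1 is highest in ERBOE lesions and lowest in ERBOE uterus, and Cldn8 spreads from -6.68 to -1.35 among PRCre lesions.

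Against the uterus, ERBOE lesions read lower for most of the 37 genes and higher for Cldn1. Cldn1 rose in ERBOE lesions, to a mean of 0.91 ± 0.77, against -2.04 ± 0.77 in ERBOE uterus (SD, n = 3), a difference of 2.95 ± 0.61 (SE) or 7.72-fold with an adjusted p of 0.0295 by limma. It was the 1 gene of the 37 past the threshold, where 1.24% of all features were. The call depended on the arrays: the adjusted p was 0.136 without ERBOE uterus replicate 2, 0.128 without ERBOE ectopic replicate 3, 0.107 without ERBOE ectopic replicate 1, 0.0823 and 0.0522 without ERBOE uterus replicates 3 and 1, and 0.0774 with only the groups compared in the fit. Within slides 1, 2 and 3 the difference was 2.23, 4.52 and 2.09. PRCre lesions, against PRCre uterus, read Cldn1 lower by mean, with a difference of -0.63 ± 0.61.

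Of the 37 genes 4 had a higher mean in ERBOE lesions than in ERBOE uterus, with a median of -0.77, against -0.07 for all features, of which 43.7% were above 0. At an unadjusted p under 0.05, 7 were lower (background 5.55%) and 1, Cldn1, was higher (background 6.3%). In 16 genes every lesion array was below every uterus array (background 11.3%) and in 2, Cldn1 and Cldn4, above (background 8.8%; Cldn4 1.15 ± 0.57). Rab25 read 0.51, 1.47 and 0.36 in ERBOE lesions, against 3.02, 2.48 and 2.04 in ERBOE uterus, a difference of -1.73 ± 0.58 (unadjusted p of 0.00961, adjusted p of 0.197). Krt19 read 4.42, 3.53 and 4.34 in ERBOE lesions, lower than all ERBOE uterus arrays, by -2.22 ± 0.85. Marveld3, Grhl2, Krt7, Cgn and Marveld2 were the others at an unadjusted p under 0.05, with differences of -1.44 ± 0.50, -1.12 ± 0.42, -1.59 ± 0.62, -1.04 ± 0.41 and -0.79 ± 0.33. The 8 genes at an unadjusted p under 0.05 became 3 without ERBOE uterus replicate 1, 5 without ERBOE uterus replicate 2, ERBOE ectopic replicate 1 or ERBOE ectopic replicate 3, 13 without ERBOE ectopic replicate 2 and 16 without PRCre eutopic replicate 1. The 4 genes with a higher mean became 2 without ERBOE uterus replicate 3. Within slides 1, 2 and 3 the median was -0.01, -1.14 and -1.54. Among further claudins, Cldn11, a claudin outside simple epithelia, rose in ERBOE lesions, at least 2.64-fold (adjusted p of 0.0436), with a mean of -3.35 in ERBOE lesions and no ERBOE uterus array well above background. Such bounds set the mean of the brighter group against the lowest signal well above background on the dimmer arrays. The further membrane, protease and traffic genes were higher for 1 of 18, with a median of -0.67, and the further transcription factors for 4 of 12, with a median of -0.66.

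PRCre lesions, against PRCre uterus, read otherwise: 26 of 37 genes had a higher mean, with a median of 0.17, against -0.08 for all features, of which 43.2% were above 0. In limma's test 0 of the 37 had an adjusted p under 0.05 (0.00904% of features). At an unadjusted p under 0.05, Cdh1 was higher by 1.24 ± 0.56 (background 4.42%), and Krt23 and Cldn8 were lower by -3.50 ± 1.36 and -2.67 ± 1.24 (background 7.49%). The Cldn8 probe was well above background on 1 of 3 PRCre lesion arrays, and its difference was -0.955 with normexp background correction and -4.40 to -1.73 with single arrays left out. Cdh1 read 1.24, 1.18 and 2.55 in PRCre lesions, all above the PRCre uterus arrays. The median was -0.13, with 16 genes higher, without PRCre ectopic replicate 3, and within slides 1 and 2 it was 0.92, with 30 higher, and 0.15, with 20 higher. The 3 genes at an unadjusted p under 0.05 became 0 without PRCre uterus replicate 3 or PRCre ectopic replicate 3, 1 without ERBOE uterus replicate 2, ERBOE ectopic replicate 3 or ERBOE eutopic replicate 3, 5 without PRCre ectopic replicate 1 or 2 and 8 without PRCre eutopic replicate 1.

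Adipocyte markers were far higher in lesions. On ERBOE lesion arrays the array median of 9 adipocyte markers was 5.22 to 5.77, and on PRCre lesion arrays 2.63 to 5.01. It was -3.99 to 0.83 on ERBOE and -3.56 to 1.14 on PRCre eutopic arrays, and -4.23 to -2.32 on ERBOE and -2.83 to -2.43 on PRCre uterus arrays. All 9 were higher in ERBOE lesions than in ERBOE uterus, 8 of them with an adjusted p under 0.05, and Fabp4, the fatty acid binding protein of fat cells, averaged 6.55 in ERBOE lesions and -2.36 in ERBOE uterus. In ERBOE lesions against ERBOE uterus, leukocyte markers were higher for 10 of 12 (median 1.11), endothelial markers for 9 of 9 (median 0.86) and smooth muscle markers for 0 of 10 (median -0.68). The mean array median in PRCre lesions and PRCre uterus was 0.25 and 0.29 for endothelial markers. It was 0.76 and -0.26 for leukocyte markers and -0.16 and 0.09 for smooth muscle markers. Of the gland markers, Foxa2 was well above background on 1 of 3 PRCre lesion arrays and on all 3 of ERBOE lesions and of every other group. Their part in the results on lesions was not tested.

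**Figure D5:**
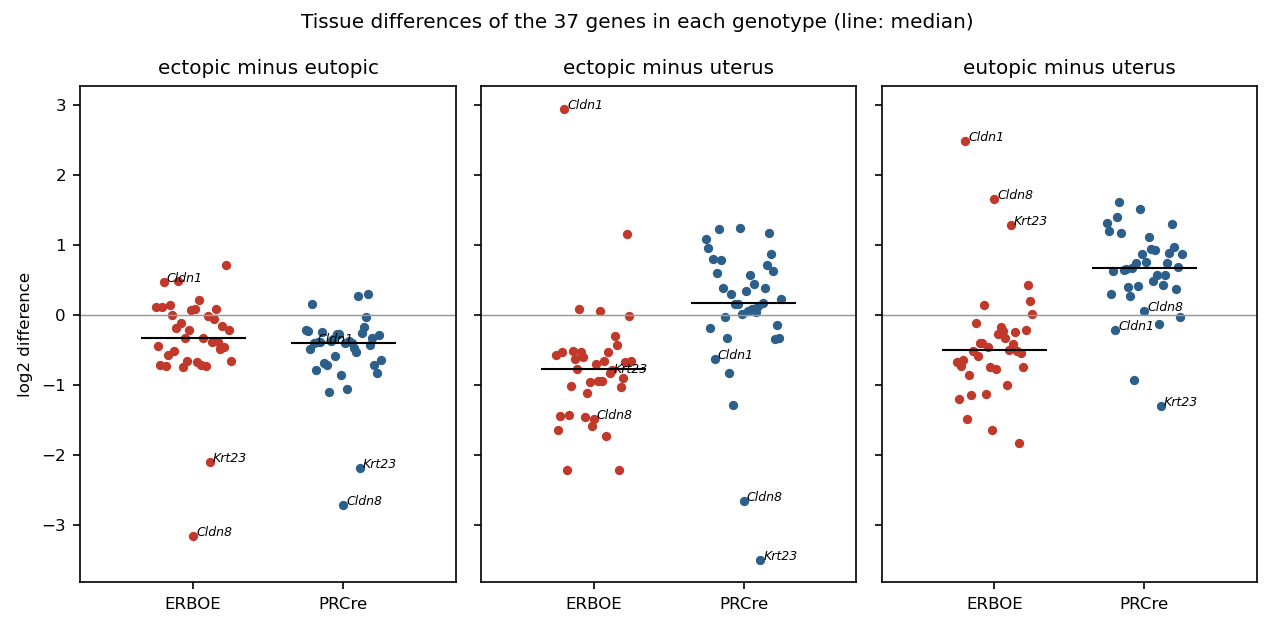
Differences in log2 level of the 37 genes (points) between ectopic lesions and eutopic endometrium, ectopic lesions and uterus, and eutopic endometrium and uterus, for ERBOE and for PRCre tissue, with Cldn1, Cldn8 and Krt23 marked. For ERBOE tissue most genes lie below 0 in each comparison, and against uterus Cldn1 lies above it at 2.95 in lesions and 2.48 in eutopic endometrium. For PRCre tissue most lie above 0 for eutopic endometrium against uterus.

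Between lesions and eutopic endometrium Cldn8 and Krt23 had the largest fitted differences in both genotypes, those of Cldn8 in part from arrays below background. Cldn8, a claudin of tight epithelia, read -6.57, -2.46 and -3.42 in ERBOE lesions, against -0.75, -1.48 and -0.76 in ERBOE eutopic endometrium, a difference of -3.16 ± 1.24 (unadjusted p of 0.0228, adjusted p of 0.373). Every ERBOE lesion was below every eutopic array. In PRCre tissue it read -1.35, -6.68 and -6.41 in lesions, against -0.41, -3.15 and -2.70 in eutopic endometrium, with overlap and a difference of -2.73 ± 1.24. The probe was not well above background on ERBOE ectopic replicate 1 and PRCre ectopic replicates 2 and 3, so these lesions give only an upper bound on its level. With normexp background correction the Cldn8 difference was -1.61 in ERBOE and -0.96 in PRCre tissue. Krt23, a type I keratin of simple epithelia, read -0.98, 0.87 and -1.77 in ERBOE lesions, against 1.09, 2.19 and 1.17 in ERBOE eutopic endometrium, a difference of -2.11 ± 1.36. In PRCre tissue it read 0.68, -3.55 and -2.53 in lesions and 2.63, 1.39 and -2.83 in eutopic endometrium, with overlap and a difference of -2.20 ± 1.36.

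Over all 37 genes, 10 had a higher mean in ERBOE lesions than in ERBOE eutopic endometrium, with a median of -0.33, against -0.12 for all features, of which 38.8% were above 0. In limma's test 0 had an adjusted p under 0.05 (0.618% of features) and Cldn8 alone an unadjusted p under 0.05 (5.65% of features lower and 4.83% higher). Arrays were above in 0 genes (background 7.02%), and in 4 every lesion array was below every eutopic array (background 13.2%): Cldn8, Krt23, Marveld3 at -0.72 and Cgn at -0.49. The 10 genes with a higher mean became 6 without ERBOE ectopic replicate 2 or ERBOE eutopic replicate 2. The Cldn8 difference had an unadjusted p over 0.05 without ERBOE ectopic replicate 1 or ERBOE eutopic replicate 1 or 3, and 3 genes were under it without ERBOE ectopic replicate 2. In PRCre tissue 3 of 37 genes had a higher mean in lesions, with a median of -0.40, against -0.06 for all features, of which 41.7% were above 0. Again 0 had an adjusted p under 0.05 (0.00301% of features) and Cldn8 alone an unadjusted p under 0.05 (1.43% of features lower and 2.54% higher). Arrays were apart in 0 genes higher (background 2.9%) and in 1 lower, Cdh16, at -1.10 (background 4.02%). The 3 genes with a higher mean in PRCre lesions became 6 and 12 without PRCre ectopic replicates 1 and 2, and 1, 14 and 8 without PRCre eutopic replicates 1, 2 and 3, with medians from -0.99 to -0.10. On slide 2, the one slide with both PRCre tissues, the median was -1.08, with 3 genes higher. With the replicate number as a block 0 genes had an unadjusted p under 0.05. Genes at an unadjusted p under 0.05 were 10 without PRCre eutopic replicate 1, 3 and 2 without PRCre ectopic replicates 3 and 1, and 0 without any of 9 other arrays.

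Eutopic endometrium was last set against uterus, which differ also in surgery and in the part of the organ taken. In ERBOE mice 7 of 37 genes had a higher mean in eutopic endometrium, with a median of -0.51, against 0.06 for all features, of which 57.6% were above 0. In limma's test 0 had an adjusted p under 0.05 (0.0% of features), and at an unadjusted p under 0.05 Cldn1 was higher by 2.48 ± 0.61 (0.0011, adjusted p of 1, background 1.89%) and Krt7 lower by -1.65 ± 0.62 (background 1.4%). Arrays were apart for 11 genes lower (background 4.7%) and 3 higher (background 6.93%), which were Cldn1, Cldn8 at 1.66 and Krt23 at 1.28. Genes with a higher mean were 12 without ERBOE uterus replicate 1 and 4 without ERBOE uterus replicate 3, and genes at an unadjusted p under 0.05 were 1 without ERBOE uterus replicate 1 or ERBOE eutopic replicate 2, 5 without ERBOE uterus replicate 3 and 6 without PRCre eutopic replicate 1. In PRCre mice 32 of 37 had a higher mean in eutopic endometrium, with a median of 0.68, against -0.03 for all features, of which 46.7% were above 0. Again 0 had an adjusted p under 0.05 (0.0% of features). Within slides 2 and 3 the median was 1.12, with 32 of 37 higher, and 0.15, with 21 of 37 higher. At an unadjusted p under 0.05, 4 were higher (background 2.55%): Cgn at 1.30 ± 0.41, Cdh1 at 1.52 ± 0.56, Dsp at 1.61 ± 0.68 and St14 at 1.31 ± 0.52. Arrays were apart for Cgn, higher (background 3.6%), and for 0 genes lower (background 6.43%). The count of 4 became 19 without PRCre eutopic replicate 1, the low array of that group, and 2, 2, 1 and 2 without PRCre uterus replicates 2 and 3 and PRCre eutopic replicates 2 and 3. The 19 has no share of all features beside it. Leaving out that array also raised counts where it is not compared, to 16 in ERBOE and 8 in PRCre lesions against uterus.

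The groups with the highest and with the lowest mean were counted over the genes. The highest mean was in ERBOE uterus for 23 of 37 genes, in PRCre eutopic endometrium for 9, in PRCre uterus for 3, and in ERBOE lesions and ERBOE eutopic endometrium for 1 each. The lowest was in PRCre uterus for 17, in ERBOE lesions for 11, in PRCre lesions for 6, in ERBOE uterus for 2 and in ERBOE eutopic endometrium for 1. The 8 other genes whose levels across the 18 arrays lay closest to the median profile of the 37, by mean absolute difference after centring each gene, were Map7 at 0.12 log2 units, Etl4, G630025P09Rik and R3hdm4 at 0.15, and Rassf7, Arhgef5, Fam83h and Cd2ap at 0.16. The median over 17864 other genes was 0.56, and among the 37 Marveld2 (0.15) and Jup (0.20) were nearest, while Cldn1, Krt23, Cldn8, Cldn10 and Elf3 were farthest. Of the 37 genes, 15 had further probes, 18 in all, and these had the sign of the probe used in 17 of 18 cases in uterus, 18 in eutopic endometrium and 16 in lesions. The probes of Cdh16 disagreed in uterus and in lesions, and those of Krt80 in lesions, where both of its differences were near 0. A shared sign did not mean a shared size. In uterus further probes of Ovol2, Spint2 and Marveld3 gave larger differences than the probe used, and those of Cgn, St14 and Spint1 smaller ones.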

How the data were processed

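RNA of 18 pooled samples was read on 1-colour Agilent arrays (Feature Extraction; design on mm9). Scanner files as deposited hold the intensity of each spot, background-subtracted by the scanner software, per the file headers, and not scaled between arrays. A deposited table of log2 values, whose normalisation no source used here gives, served as an alternative.

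Here control and outlier spots were dropped, processed intensity was put on the log2 scale, each array was set relative to its 75th percentile and repeated spots were averaged. Probes were named through the RefSeq table of GRCm38.p6 (32994 of 56605 probes), and the probe brightest over the arrays stood for a gene. Features well above background on at least 3 of 18 arrays were kept (33178 of 46522, 17901 with a symbol). limma 3.58.1 in R 4.3.3 fitted 1 mean per group to all 6 groups, with 12 residual and 2.49 prior degrees of freedom, 2-sided tests and Benjamini-Hochberg adjustment over all features. The fit was run on simulated data with independent noise and no slide effect, which checks the code and not the results. Same-numbered arrays deviated together (r over 0.1 in every pair) in 2 of the 9 comparisons of groups: ERBOE with PRCre uterus (0.395, 0.306 and 0.441), where they also shared a slide, and PRCre lesions with PRCre eutopic endometrium (0.335, 0.226 and 0.132). The labels give no meaning to the numbers, and a fit with them as a block was an alternative. The number of arrays limits the precision.

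The members and lists were chosen with earlier results of these data known. Named genes are the 37, Esr2, Esr1 and Pgr, up to 3 genes per further list with the smallest p, genes of a list past the threshold that a count is about, and the 8 nearest profiles. Alternatives were other backgrounds, scalings, filters, probe and fit choices, blocks, single slides and single arrays left out. The planned background correction named a mean signal; the files hold the median signal, which was used.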

Additional observations from a re-analysis of the deposited data

Results flagged for a closer look

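Cldn1 had opposite genotype effects in 2 tissues. The ERBOE minus PRCre difference was -1.33 in uterus, with every ERBOE array below every PRCre array, and 2.25 in ectopic lesions, with every ERBOE array above every PRCre array. The difference between the effects, ectopic minus uterus, was 3.58 ± 0.86 (SE, unadjusted p of 0.000933, adjusted p of 0.464 by limma). The effects rest on different arrays.

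Pkp3, the plakophilin 3 gene, differed between lesions and uterus in opposite directions in the genotypes. The ectopic minus uterus difference was -0.53 for ERBOE tissue and 0.79 for PRCre tissue, with arrays apart in both. The ERBOE minus PRCre difference between these effects was -1.32 ± 0.64 (unadjusted p of 0.0574, adjusted p of 0.748 by limma). The gene was read on 2 of 3 ERBOE uterus arrays.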

How the results depend on the processing

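Of 739 recalculated medians and counts past the threshold, 726 stayed within the replicate spread or within 1.5 times the count and 13 moved. Many medians could not move, since leaving out an array outside the compared groups does not change their difference. Most counts were 0 in the report as well, and the sign changes given next lay within the replicate spread and count as staying. These totals therefore do not measure how firm the results are. Medians that changed sign when a single array was left out were those of the genotype in eutopic endometrium and in lesions, of PRCre lesions against uterus and of the genotype effect in lesions against eutopic endometrium. With single arrays left out, the median ERBOE minus PRCre difference was 0.67 to 1.20 in uterus, -0.71 to 0.13 in eutopic endometrium and -0.46 to 0.22 in lesions. The median of lesions against eutopic endometrium was -0.35 to -0.15 in ERBOE and -0.99 to -0.10 in PRCre tissue, of lesions against uterus -1.11 to -0.62 and -0.13 to 0.50, and of eutopic endometrium against uterus -0.77 to -0.29 and 0.36 to 1.11. The median difference of the genotype effect was -0.19 to 0.58 for lesions against eutopic endometrium, -1.30 to -0.72 for lesions against uterus and -1.49 to -0.81 for eutopic endometrium against uterus. Genes past the threshold were 0 to 1 in ERBOE lesions against uterus and 0 elsewhere.

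Within slides, the ERBOE median of lesions against uterus was -0.013, -1.14 and -1.54 on slides 1, 2 and 3, the ERBOE median of eutopic endometrium against uterus -0.91 on slide 3, and the PRCre median of lesions against uterus 0.92 on slide 1. In ERBOE lesions against uterus, 5 genes passed with array weights, which gave PRCre uterus replicate 1 a weight of 0.26 (Cldn1, with Rab25 at -2.05, Marveld3 at -1.59, Grhl2 at -1.34 and Krt7 at -1.71), and 0 with only the compared groups in the fit, a smaller number of samples. The share of all features that passed in either fit is not given here, so these counts have no background beside them. Over 12 other settings the uterus median was 0.79 to 1.12 and 16 to 24 genes had an unadjusted p under 0.05. The background of that count moved too. Over all features 3293 had an unadjusted p under 0.05 in the report, 2983 with median scaling and 4056 with normexp background correction. It is not given here for every setting. Scaling moved the median of all features in uterus, -0.12 in the report, to 0.05 with median scaling.

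Each group had 1 array of each replicate number, so a replicate block over all 18 arrays cannot move the differences of genes read on every array. The uterus median, 0.89 with the block, is therefore no check. The block can change the p-values, and with it the Cldn1 call in ERBOE lesions had an adjusted p of 0.0442 by limma. No gene's side of the threshold changed. Genes at an unadjusted p under 0.05 became 0 in PRCre lesions against eutopic endometrium, 6 for the genotype effect in lesions against uterus, and 1 for that in lesions against eutopic endometrium.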

Other observations

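Genes outside the 37 that mark glands, cilia and other epithelia were also read in ERBOE lesions against PRCre lesions, and none passed limma's threshold over all features. Of 7 gland markers 6 read higher in ERBOE lesions, with a median difference of 0.78. Of the 6 ciliated cell markers tested 4 read higher, with a median of 0.17, of 6 stratified squamous markers 5, with a median of 0.12, and of 12 other keratins 7, with a median of 0.12. The lists of squamous markers and of other keratins share genes. Of all features 43.9% read higher in ERBOE lesions, with a median of -0.06.

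Foxa2, a factor of uterine glands, averaged -2.22 in ERBOE lesions, where all 3 arrays were well above background, and -5.64 in PRCre lesions, where 1 of 3 was (unadjusted p of 0.00153, adjusted p of 0.784 by limma). Krt17, a keratin of basal and activated epithelium and one of the other keratins, averaged 0.53 in ERBOE lesions and -1.83 in PRCre lesions, a difference of 2.35 ± 0.74 (SE; unadjusted p of 0.0065, adjusted p of 0.975 by limma). Foxj1, the factor of motile cilia, was read at least 2.52-fold higher in ERBOE lesions, with 0 of 3 PRCre arrays well above background (adjusted p of 0.994 by limma). These 3 genes were picked for their small p among the lists.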
